A study of Mus musculus with 27 samples.

Results

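Ampd3 encodes an AMP deaminase, an enzyme that turns AMP into IMP, and it is described here with 9 other genes that make, move, break down or sense purines: Ampd2, Slc28a2, Ada, Adora2a, Adora2b, Impdh2, Pnp, Xdh and Entpd7. The members were taken by gene symbol, 10 of the 55483 genes in the deposited count table, and Ampd3 was chosen by its rise under the compound TM7nox. Every value of Ampd3 is therefore given as a description with no test. The cells were RAW264.7, a mouse macrophage line, kept for 6 h in the solvent DMSO, in lipopolysaccharide (LPS, 1 µg/ml) with DMSO, or in LPS with TM7nox. The labels give 10 µM for the tanshinone mimics as a class, and this dose is taken to hold for TM7nox. LPS is a bacterial wall component that activates macrophages, and TM7nox is one of these mimics, compounds made to act on the RNA-binding protein HuR. All groups are the same cell line, no gene was deleted, and no group received TM7nox without LPS. Each treatment had 4 libraries of total RNA, 4 of RNA pulled down with anti-HuR (RIP, ribonucleoprotein immunoprecipitation) and 1 of RNA pulled down with control IgG.

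Purine nucleotides form a branched cycle. De novo synthesis ends in IMP, which is made into AMP or, through IMP dehydrogenase (Impdh2), into GMP. AMP deaminases return AMP to IMP. Adenosine deaminase (Ada) and purine nucleoside phosphorylase (Pnp) act on nucleosides, and xanthine dehydrogenase (Xdh) makes uric acid at the end of the path. Outside the cell, ATP and adenosine are signals: nucleotide-hydrolysing ectoenzymes break ATP down, concentrative carriers such as Slc28a2 take nucleosides up, and the adenosine receptors Adora2a and Adora2b sense adenosine on macrophages, where signalling through them is known to restrain inflammatory output. HuR binds runs of U and AU-rich stretches, mostly in 3′ untranslated regions of mRNA.

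For orientation, the stretches of 30 bases with the most U in the 3′ untranslated regions of 5 members are shown because HuR binds such sequence. They are the AMP deaminases Ampd3 and Ampd2, the nucleoside enzymes Pnp and Ada, and Entpd7, the member with the highest ratio of RIP to RNA. Capitals mark runs of 3 or more U, each line is 5′ to 3′ in the sense of the mRNA, and coordinates are on GRCm39.
Entpd7, chr19:43719582-43719611, plus strand: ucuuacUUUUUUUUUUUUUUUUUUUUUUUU
Pnp, chr14:51189735-51189764, plus strand: UUUUUUUUUUUUUUUUUUUUcgcauugUUU
Ada, chr2:163568514-163568543, minus strand: UUUaUUUUUauuaUUUUUaaauaUUUaauu
Ampd3, chr7:110410779-110410808, plus strand: uuauggggcugcucuucacUUUUUgUUUUU
Ampd2, chr3:107981844-107981873, minus strand: guucaaguugagUUUcccucuugUUUaugu
The window of Entpd7 held 27 U, that of Pnp 25, that of Ada 21, that of Ampd3 17 and that of Ampd2 15. The whole 3′ untranslated region of Entpd7 was 5279 bases long, with 31.9% U, 8 copies of AUUUA and 61 of UUUUU (overlapping copies counted, sense strand only). That of Ampd3 was 1500 bases, with 29.7% U, 1 copy of AUUUA and 8 of UUUUU, and that of Pnp was 1791 bases, with 31.0% U, 4 copies of AUUUA and 29 of UUUUU. Over 10995 tested coding genes the median U share was 29.2%, 73.5% of genes held AUUUA and 81.2% held UUUUU. By U share Entpd7 stood at percentile 72.9, Pnp at 66.1 and Ampd3 at 54.9. By copies of UUUUU per kilobase they stood at percentiles 87.0, 93.7 and 59.0, and by copies of AUUUA per kilobase at 53.1, 68.9 and 32.9, with Ada at 90.9. A matching sequence is a description of the window and not a measured binding site.

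The RNA libraries held 2.73 to 28.3 M counts, the RIP libraries 19.8 to 41.4 M and the IgG libraries 8.87 to 24.5 M. RNA DMSO replicate 1 was the shallowest and the next RNA library held 16.3 M. Levels are in CPM, counts scaled to library size and put on 1 scale for all 27 libraries. Counting error covers reads, not molecules, since no molecular identifiers are stated. The 10 listed macrophage markers had a summed RNA level between 5314 and 6581 CPM in DMSO and between 5143 and 7092 in LPS. With TM7nox it was between 3608 and 6345 CPM, the low end of which was below both other groups. Lyz2 (1237 to 4384 CPM) and Cd14 (513 to 1932 CPM) made up much of the sum. Mertk was near the limit of detection, at 0 to 1.12 CPM. With LPS 6 of the 10 markers were called higher and 1 lower, where 20.2% and 21.7% of all genes were. With TM7nox against LPS 0 were higher (also 0 unadjusted and by DESeq2) and 4 lower, where 7.37% and 6.4% of all genes were, and the part of this in the results below was not tested. The 12 markers of other cell types summed to at most 1.33 CPM in any RNA library, and Krt8, Epcam, Hbb-bs, Hba-a1 and Ly6g were at 0 in all of them. In bulk samples fewer cells that express a gene and less RNA per cell cannot be told apart.

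The AMP deaminases came first by rule. Ampd3 (chromosome 7, 110366387 to 110411617, plus strand) overlaps Rnf141 on the other strand, which averaged 13.9, 12.5 and 14.1 CPM in RNA of the 3 treatments. Ampd3 stood in RNA at 8.05, 7.54, 8.30 and 8.64 CPM in DMSO replicates 1 to 4. With LPS it stood at 3.93, 4.67, 6.80 and 5.37 CPM, and with LPS and TM7nox at 69.5, 43.7, 55.3 and 52.2 CPM. Every TM7nox library was above every other RNA library, and every LPS library was below every DMSO library. The group means were 8.13 ± 0.463, 5.19 ± 1.22 and 55.2 ± 10.7 CPM (SD, n = 4 each). Against LPS the TM7nox level was 10.6-fold higher (log2 difference 3.41), the 11th of 12369 tested genes ordered by log2 fold change, and against DMSO it was 6.66-fold higher (2.74). These ratios chose the gene and carry no test. The log2 fold change of LPS against DMSO was -0.67, and it shares the LPS libraries with the ratio that chose the gene.

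The RIP libraries came from the same treatments and carry the same replicate numbers, so they are not independent support for the rise that chose Ampd3. There Ampd3 stood at 4.67, 4.69, 4.86 and 4.52 CPM in DMSO and at 3.89, 3.41, 6.16 and 4.06 CPM in LPS. With TM7nox it stood at 44.2, 26.2, 48.8 and 34.8 CPM. The TM7nox libraries again lay above all others, while DMSO and LPS overlapped. In RIP the TM7nox level was 8.52-fold that with LPS (log2 3.09), and LPS differed from DMSO by -0.12. In the single IgG libraries Ampd3 stood at 9.65 CPM in DMSO, 7.51 in LPS and 74.4 with TM7nox (95% Poisson interval 69.6 to 79.6), so IgG held 2.06, 1.71 and 1.94 times the RIP mean of the same treatment. The high level with TM7nox was thus present in the RNA, the RIP and the IgG libraries.

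Ampd2 (chromosome 3, 107981373 to 107994224, minus strand), the other AMP deaminase that passed the filter on low counts, took a smaller course. Its RNA stood at 54.2, 64.9, 60.7 and 65.5 CPM in DMSO, at 37.7, 41.8, 40.6 and 45.6 in LPS and at 46.4, 44.4, 52.5 and 51.5 with TM7nox. All LPS libraries were below all DMSO libraries, and LPS and TM7nox overlapped. The fall with LPS was -0.60 (SE 0.101, edgeR quasi-likelihood adjusted p = 0.00026), not called in replicates 1 and 2 alone (adjusted p = 0.0973). Between LPS and TM7nox Ampd2 differed by 0.24 (SE 0.10, adjusted p = 0.146), and with replicate number as a block by 0.24 (adjusted p = 0.0456). It was also called in replicates 3 and 4 alone (adjusted p = 0.0404). Per kilobase of exon, RNA levels of the 2 enzymes in DMSO were 1.04 CPM for Ampd3 and 11.3 for Ampd2. With TM7nox they were 7.04 and 8.94 CPM per kilobase, and the ranges of the libraries, 5.57 to 8.86 and 8.15 to 9.64, overlapped. On that scale Ampd3 had the 6th highest group mean of 10 members in DMSO, the 9th in LPS and the 5th with TM7nox. In DMSO it overlapped both its neighbours in the order, Ada above it and Xdh below it. In LPS it overlapped Ada, just above it, and not Adora2a, just below it. With TM7nox it overlapped Adora2b, just above it, and not Entpd7, just below it.

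**Figure D1:**
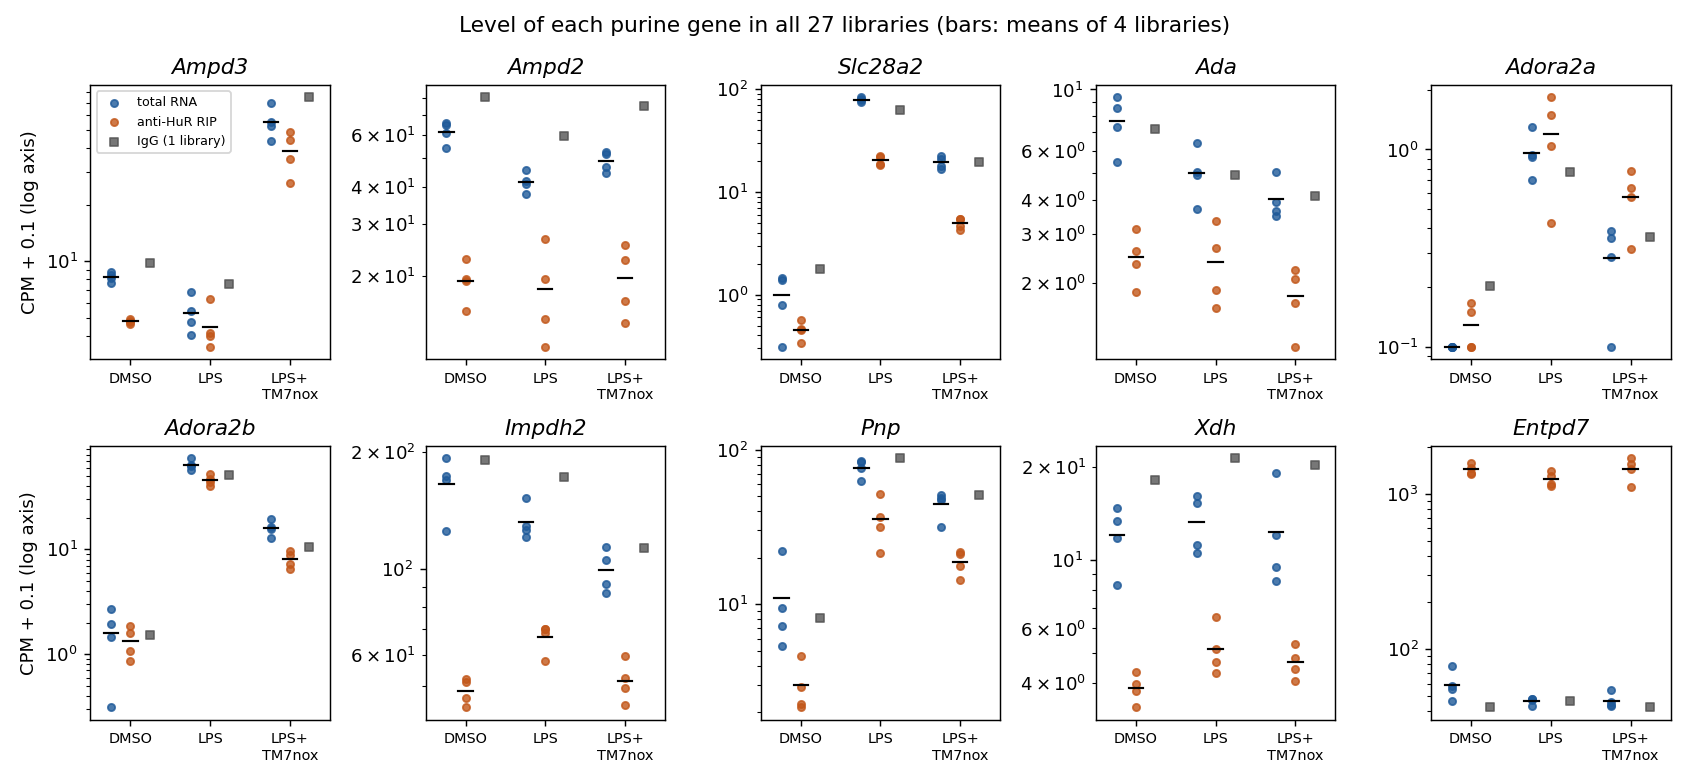
RNA, RIP and IgG level of the 10 members (CPM plus 0.1, log axis) in each library by treatment, with bars at the group means. In the Ampd3 panel the TM7nox libraries stand above those of DMSO and LPS, and in the Slc28a2 and Adora2b panels the LPS libraries stand highest and the TM7nox libraries in between.

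LPS against DMSO in RNA called 6 of the 8 members with a test, 3 higher and 3 lower, where 42% of all 12369 genes tested were called (20.2% higher and 21.7% lower). The members that rose were the carrier Slc28a2, the receptor Adora2b, and Pnp. Those that fell were Ampd2, Ada and Impdh2. Adora2a has no test because in RNA it reached the filter on low counts only through its LPS libraries. TM7nox against LPS in RNA called 0 of the 8 higher and 2 lower (Slc28a2 and Adora2b), where 13.8% of genes were called (7.37% higher and 6.4% lower). At an unadjusted p under 0.05 these were 1 higher and 4 lower, where 26.3% of all genes were. With DESeq2 they were 0 higher and 3 lower, where it called 18.5% of all genes, and with the replicate block 1 higher and 3 lower, where that fit called 25%. Both comparisons use the same LPS libraries.

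Slc28a2 (chromosome 2, 122256870 to 122291632, plus strand) is a sodium-coupled carrier that takes up purine nucleosides. Its RNA stood at 0.212, 0.695, 1.35 and 1.28 CPM in DMSO, the first being the shallow library. With LPS it stood at 74.5, 83.5, 81.0 and 78.6 CPM, and with TM7nox at 16.7, 17.9, 22.3 and 20.8. The 3 groups were apart, with TM7nox between DMSO and LPS. The rise with LPS was 76.5-fold (log2 6.26, SE 0.254, adjusted p = 1.09e-09). The TM7nox level was 4.08-fold lower than LPS (log2 -2.03, SE 0.195, adjusted p = 2.23e-05) and 18.8-fold higher than DMSO (log2 4.23, SE 0.241, adjusted p = 1.49e-08). In RIP the means were 0.354 ± 0.0924, 20.3 ± 2.15 and 4.86 ± 0.595 CPM (SD, n = 4 each), a rise of 5.80 with LPS (SE 0.230, adjusted p = 4.21e-11) and a difference of -2.10 with TM7nox (SE 0.182, adjusted p = 2.75e-06). The near-copy Slc28a2b, whose reads the counting could have split with Slc28a2, went the same way at a mean of 0.111, 6.88 and 2.05 CPM in RNA. Its changes were 5.62 with LPS (SE 0.483, adjusted p = 5.38e-07) and -1.73 with TM7nox (SE 0.351, adjusted p = 0.00455, but 0.203 in replicates 1 and 2 alone). Slc28a2b reached the level needed to enter the test in 0 DMSO, 4 LPS and 4 TM7nox RNA libraries. It could enter only through libraries that received LPS, where it was high, so its LPS p-value is not support for the rise. Single values of the pair are uncertain because reads could be split between them.

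Adora2b (chromosome 11, 62139804 to 62157279, plus strand), an adenosine receptor with low affinity, followed a like course. Its RNA stood at 0.212, 2.60, 1.35 and 1.84 CPM in DMSO, where the first value is a single count. With LPS it stood at 63.2, 74.0, 62.2 and 57.6 CPM, and with TM7nox at 15.5, 12.8, 16.3 and 19.5. No LPS library came near a TM7nox library, and all of these were above DMSO. The LPS rise was 36.1-fold (log2 5.17, SE 0.292, adjusted p = 1.03e-08), the TM7nox level was 4.00-fold lower than LPS (log2 -2.0, SE 0.241, adjusted p = 0.000107), and it was 9.01-fold higher than DMSO (log2 3.17, SE 0.277, adjusted p = 5.79e-07). In RIP the means were 1.24 ± 0.460, 45.8 ± 5.17 and 7.97 ± 1.47 CPM (SD, n = 4 each). There the rise was 5.16 (SE 0.259, adjusted p = 4.65e-10) and the TM7nox difference -2.57 (SE 0.225, adjusted p = 3.21e-06).

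Adora2a (chromosome 10, 75152560 to 75170628, plus strand), the high-affinity receptor, was near the limit of detection. It had 0 counts in all 4 DMSO RNA libraries and stood at 0.599, 0.838, 1.2 and 0.811 CPM in LPS, 101 counts in all. With TM7nox it stood at 0, 0.184, 0.285 and 0.255 CPM, 20 counts in all. Against a floor of 3 counts over the DMSO group, LPS stood at 30.6 times and TM7nox at 6.80 times that floor. The counting error of the 101 and 20 counts is not included in these ratios. Every LPS library was above every other RNA library. The level needed to enter the test was reached in all 4 LPS libraries and in 0 DMSO and 0 TM7nox libraries, so the gene could enter only by being high in LPS. For that reason these differences carry no test. In RIP the group totals were 3, 82 and 35 counts, and that level was reached in 0 DMSO, 3 LPS and 1 TM7nox library.

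Pnp (chromosome 14, 51168473 to 51190869, plus strand), which splits inosine and guanosine into base and sugar phosphate, stood in RNA at 22, 9.34, 5.31 and 7.16 CPM in DMSO, the first being the shallow library. With LPS it stood at 62.5, 75.7, 83.9 and 83.2 CPM, and with TM7nox at 31.3, 50.8, 47.4 and 48.7. The TM7nox libraries lay above every DMSO library and below every LPS library. The LPS rise was 7.37-fold (log2 2.88, SE 0.356, adjusted p = 1.82e-05), and TM7nox stood above DMSO by 2.11 (SE 0.349, adjusted p = 0.000187). Between TM7nox and LPS the RNA difference was -0.77 (SE 0.321, adjusted p = 0.14). It was called in replicates 3 and 4 alone (-0.78, adjusted p = 0.000645) and with no filter on low counts (adjusted p = 0.000165).

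In RIP the Pnp means were 2.90 ± 1.14, 35.3 ± 12.4 and 18.5 ± 3.43 CPM (SD, n = 4 each), a rise of 3.57 with LPS (SE 0.301, adjusted p = 1.28e-07). The TM7nox difference in RIP was called (-0.97, SE 0.271, adjusted p = 0.0223), but not without LPS replicate 4 (adjusted p = 0.0811), TM7nox replicate 1 (0.0596) or TM7nox replicate 2 (0.0614), nor in replicates 1 and 2 alone (0.131). Pnp2, a near-copy that may share reads with Pnp, averaged 0.155, 2.14 and 1.14 CPM in RNA. It rose with LPS by 3.42 (SE 0.734, adjusted p = 0.0018), though not in replicates 1 and 2 alone (adjusted p = 0.282). With 1 library left out the rise was 3.22 to 4.12. Pnp2 reached the level needed to enter the test in 1 DMSO, 4 LPS and 3 TM7nox RNA libraries, so its entry rested mostly on libraries with LPS. TM7nox and LPS differed by -0.90 (SE 0.610, adjusted p = 0.389).

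Ada (chromosome 2, 163565705 to 163592159, minus strand), which deaminates adenosine to inosine, stood in RNA at 7.20, 5.35, 9.26 and 8.48 CPM in DMSO, at 6.29, 4.80, 3.61 and 4.93 in LPS and at 4.96, 3.82, 3.54 and 3.40 with TM7nox. The groups overlapped at each step. The fall with LPS was -0.66 (SE 0.234, adjusted p = 0.0353). It was lost without DMSO replicate 3 (adjusted p = 0.120) or 4 (0.0927), without LPS replicate 2 (0.0751), 3 (0.112) or 4 (0.0773), in replicates 1 and 2 alone (0.880) and with no filter on low counts (0.108). TM7nox and LPS differed by -0.32 (SE 0.234, adjusted p = 0.433). The opposite-strand gene Pkig overlaps Ada and averaged 36.5, 50.2 and 46.7 CPM, and the strand setting of the counting is not given in the sources used here.

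Impdh2 (chromosome 9, 108437485 to 108442783, plus strand), the GMP-branch enzyme, was the most abundant member in RNA per kilobase in every treatment. It stood at 125, 193, 170 and 174 CPM in DMSO, at 126, 152, 121 and 129 in LPS and at 105, 114, 91.4 and 86.7 with TM7nox. Every TM7nox library was below every LPS library, while LPS and DMSO overlapped. The LPS difference was -0.36 (SE 0.134, adjusted p = 0.0464). It was lost without LPS replicate 1 (adjusted p = 0.0868), 3 (0.131) or 4 (0.112), without DMSO replicate 2 (0.134), 3 (0.0943) or 4 (0.0993), with DESeq2 (0.0615) or its size factors (0.0796), in replicates 1 and 2 alone (0.716) and with no filter (0.226). The TM7nox difference was -0.41 (SE 0.134, adjusted p = 0.061). With the replicate block it was called (adjusted p = 0.011), as it was with DESeq2 (0.0162), with its size factors (0.0448), without TM7nox replicate 2 (0.0459) and in replicates 3 and 4 alone (0.00232). From DMSO to TM7nox the fall was -0.76 (SE 0.135, adjusted p = 0.000338).

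Xdh (chromosome 17, 74190203 to 74257399, minus strand) showed no called change between treatments in the main fits of RNA and of RIP. Its RNA stood at 11.7, 8.16, 13.3 and 14.6 CPM in DMSO, at 15.9, 11, 15.1 and 10.4 in LPS and at 18.9, 11.9, 9.36 and 8.41 with TM7nox, and all 3 groups overlapped. The LPS difference was 0.11 (95% interval -0.46 to 0.68, adjusted p = 0.783) and the TM7nox difference -0.11 (-0.67 to 0.45, adjusted p = 0.848), and both turned direction when single libraries were left out.

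Compared with DMSO, TM7nox with LPS left 6 of the 8 members with a test called, 3 higher and 3 lower, where 47.3% of genes were called (23.7% higher and 23.6% lower). The higher ones were Slc28a2, Adora2b and Pnp. Those lower were Impdh2, Ada (-0.98, adjusted p = 0.00358) and Ampd2 (-0.36, adjusted p = 0.00849), and all 3 were lost in replicates 1 and 2 alone (adjusted p = 0.168, 0.484 and 0.230). Ampd2 was also lost with no filter (0.229). Entpd7 differed by -0.37 (SE 0.157, adjusted p = 0.065) and was called with the replicate block (-0.35, adjusted p = 0.015) and without DMSO replicate 4 (-0.48, adjusted p = 0.0226). Xdh was called lower in replicates 3 and 4 alone (-0.62, adjusted p = 0.0108). This comparison shares the DMSO libraries with the LPS comparison and the TM7nox libraries with the other.

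In RIP, LPS called 4 members higher and 0 lower (also 0 unadjusted and by DESeq2) of 8, where 44.7% of 13614 genes were called (23.5% higher and 21.2% lower). These were Slc28a2, Adora2b, Pnp and Impdh2. Impdh2 averaged 48.4 ± 3.83, 66.6 ± 5.79 and 51.4 ± 6.25 CPM in RIP (SD, n = 4 each). Its rise of 0.44 (SE 0.142, adjusted p = 0.0196) had the opposite sign to its RNA difference. It was lost without LPS replicate 1 (adjusted p = 0.0655), 3 (0.0594) or 4 (0.0529), without DMSO replicate 2 (0.0642), 3 (0.0528) or 4 (0.0756), in replicates 1 and 2 (0.274), in replicates 3 and 4 (0.0989) and with no filter (0.152). TM7nox against LPS in RIP called 0 of the 8 higher (also 0 unadjusted and by DESeq2) and 3 lower (Slc28a2, Adora2b and Pnp), where 16.2% of genes were called (8.64% higher and 7.61% lower). With the replicate block 4 were lower, where that fit called 33.6% of all genes (17% lower). Impdh2 missed the threshold there (-0.42, SE 0.142, adjusted p = 0.0541) and passed it with the replicate block (0.0103), with DESeq2 (0.00589) or its size factors (0.0473), and without LPS replicate 2 (0.0462) or TM7nox replicate 3 (0.0486). For Xdh the LPS difference in RIP was 0.41 (SE 0.194, adjusted p = 0.0973, and 0.0405 with the block).

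**Figure D2:**
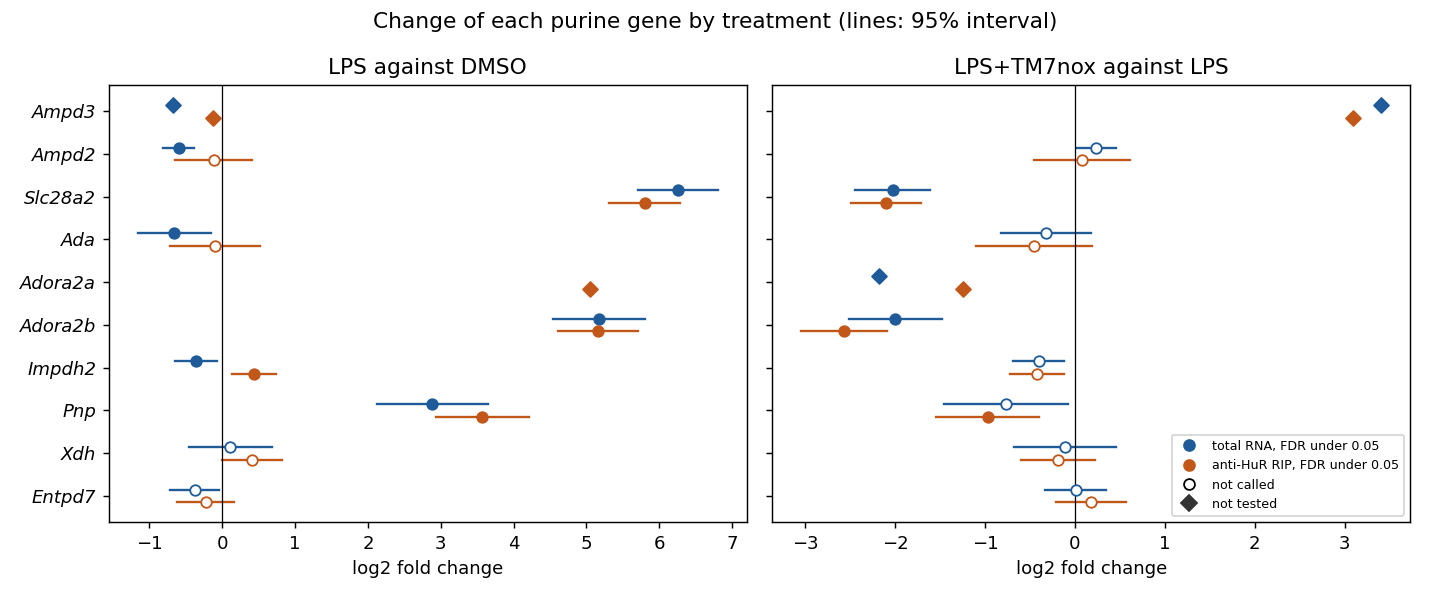
Log2 fold change of the members with its 95% interval in RNA and in RIP, for LPS against DMSO and for TM7nox with LPS against LPS. Slc28a2, Adora2b and Pnp lie right of 0 with LPS and left of it with TM7nox, Ampd3 and Adora2a are drawn as untested points, with Ampd3 in the TM7nox panel at 3.41 in RNA and 3.09 in RIP, and Adora2a in RNA with LPS is left out because all DMSO libraries were at 0.

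Entpd7 (chromosome 19, 43678087 to 43723653, plus strand), an ectonucleotidase-family enzyme of intracellular membranes that hydrolyses nucleoside triphosphates, was the member that stood apart in RIP. Its RNA stood at 77.5, 55.0, 57.6 and 46.5 CPM in DMSO, at 47.3, 47.5, 47.9 and 42.9 in LPS and at 54.3, 42.8, 43.4 and 45.8 with TM7nox. In RIP it stood at 1455, 1345, 1368 and 1578 CPM in DMSO, at 1299, 1391, 1121 and 1163 in LPS and at 1433, 1556, 1110 and 1694 with TM7nox. Every RIP library was above every RNA library, and the treatments overlapped within RIP. In IgG it stood at 42.7 CPM in DMSO (95% Poisson interval 40.6 to 44.8), 46.5 in LPS (44.1 to 48.9) and 42.2 with TM7nox (38.5 to 46.1), so the RIP means were 33.7, 26.7 and 34.3 times the IgG value.

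Between same-numbered libraries the RIP to RNA ratio of Entpd7 lay between 18.8 and 33.9 in DMSO, between 23.4 and 29.3 in LPS and between 25.6 and 36.9 with TM7nox. The fitted log2 ratios, relative to the typical gene, were 4.74 (SE 0.177, adjusted p = 7.22e-17), 4.75 (SE 0.177, adjusted p = 5.72e-17) and 4.94 (SE 0.178, adjusted p = 2.72e-17). In DMSO this was the 324th highest of 14311 genes. The ratio with TM7nox differed from that with LPS by 0.19 (95% interval -0.25 to 0.63, adjusted p = 0.908), and the one with LPS from that with DMSO by 0.01 (-0.43 to 0.45, adjusted p = 0.996). Anti-HuR against IgG, over all treatments, gave 4.95 (SE 0.236, adjusted p = 6.29e-12). Cox15, on the opposite strand and overlapping Entpd7, averaged 36.9, 44.0 and 43.6 CPM in RNA and 162, 187 and 233 CPM in RIP, and its part in the Entpd7 counts was not tested. Entpd7 RNA itself differed by -0.38 with LPS (SE 0.157, adjusted p = 0.0665). That difference was called with the replicate block (-0.35, adjusted p = 0.0165) and without DMSO replicate 4 (-0.49, adjusted p = 0.0239). With TM7nox the RNA difference from LPS was 0.01 (95% interval -0.33 to 0.34, adjusted p = 0.986).

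**Figure D3:**
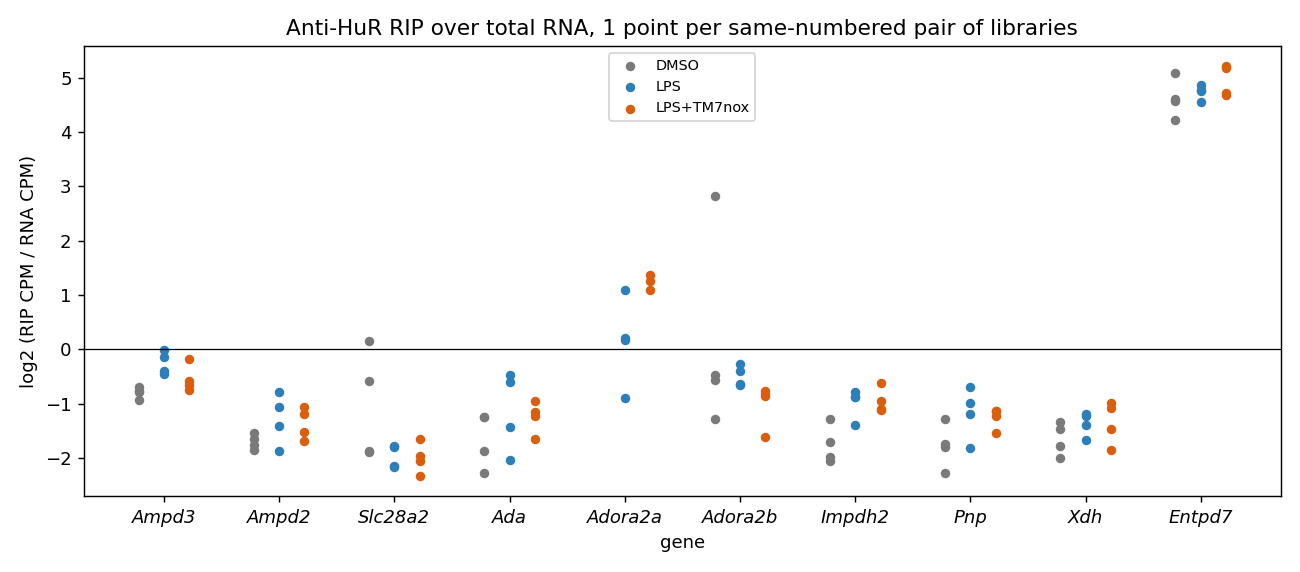
Log2 ratio of RIP to RNA for same-numbered libraries of each member, by treatment, with pairs that hold a count of 0 left out. Entpd7 lies between ratios of 18.8 and 36.9 on the linear scale in all 12 pairs, while the ratios of Ampd3 lie between 0.523 and 0.988.

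Most other members were recovered less in RIP than the typical gene. Of the 8 members with a test, RIP over RNA called 1 higher (Entpd7) and 6 lower in DMSO, 1 and 6 in LPS, and 1 and 7 with TM7nox. The call of Ada in LPS was lost in replicates 3 and 4 alone (-0.59, adjusted p = 0.0692). Over all genes 70.4%, 63.7% and 69.9% were called, with 37%, 32.9% and 35.2% higher and 33.4%, 30.8% and 34.8% lower. Slc28a2 had log2 ratios of -1.42 in DMSO (adjusted p = 0.000172, but 0.219 in replicates 1 and 2 alone), -1.96 in LPS and -2.02 with TM7nox, and Ampd2 had -1.58, -1.22 and -1.36. Ampd3 had -0.69 in DMSO, -0.26 in LPS and -0.54 with TM7nox, as a description with no test. Adora2b was not called in DMSO (-0.38, adjusted p = 0.269) or LPS (-0.48, adjusted p = 0.0923), and was called lower with TM7nox (-1.03, adjusted p = 0.001, and 0.107 in replicates 1 and 2 alone). In DMSO it was called lower without the shallow RNA DMSO replicate 1 (-0.58, adjusted p = 0.0491) and in replicates 3 and 4 alone (-0.80, adjusted p = 0.0181). In LPS it was called lower with the replicate block (adjusted p = 0.0483), in replicates 3 and 4 alone (0.0192) and with no filter (0.0345).

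Anti-HuR against IgG called 1 of the 8 higher (Entpd7) and 6 lower, where 68.1% of 14973 genes were called (33.8% higher and 34.2% lower). Ampd3 stood at -0.95 there, with no test. Adora2b did not differ beyond the threshold (-0.26, SE 0.189, adjusted p = 0.232). All IgG libraries are replicate 3, so replicate number and antibody are partly confounded.

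The change of RIP over RNA by treatment was tested itself. LPS changed it for 0 of 8 members by edgeR, where 0.0419% of genes (6 in all) were called (0.014% higher and 0.028% lower), and TM7nox for 0 of 8, where 0.00699% (1 gene, higher) were called and 0% lower. At an unadjusted p under 0.05 the counts were 1 and 0 members of 8, beside 7.27% and 5.39% of all genes. With DESeq2 they were also 1 and 0, where it called 0.461% and 0.021% of all genes. The 1 member was Impdh2, whose ratio was higher in LPS than in DMSO by 0.68 (95% interval 0.25 to 1.12, adjusted p = 0.388 with edgeR and 0.00517 with DESeq2). As a description, the Ampd3 ratio differed by 0.43 between LPS and DMSO and by -0.28 between TM7nox and LPS. Pair ratios of Ampd3 ran from 0.731 to 0.988 in LPS and overlapped the TM7nox range (0.599 to 0.881). Every DMSO pair (range 0.523 to 0.622) was below every LPS pair, while the DMSO and TM7nox ranges overlapped.

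The wider purine pathway was described with 5 lists that hold 72 genes of the table besides Ampd3, Adora2a and Adora3. Of 56 tested in RNA, LPS called 11 higher (19.6%, beside 20.2% of all genes) and 18 lower (32.1%, beside 21.7%), with a median log2 fold change of -0.26 beside -0.04 over all genes. The share called higher was thus near that of all genes. TM7nox against LPS called 1 higher (1.79%, beside 7.37%) and 9 lower (16.1%, beside 6.4%), with a median of -0.25 beside 0.00. These lists include the 8 members with a test, and the counts describe them without a test of the list.

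The list of de novo synthesis also holds the GMP-branch genes Impdh1, Impdh2 and Gmps. With LPS 7 of its 10 genes fell and 0 rose (also 0 unadjusted and by DESeq2), with a median of -0.68, where 20.2% of all genes were called higher and 21.7% lower. One of the 7 was Impdh2, whose call was fragile as given above, and DESeq2 called 6 of the 10 lower, beside 21.9% of all genes. The others included Prps2, which makes phosphoribosyl pyrophosphate (-1.20, SE 0.264, adjusted p = 0.00211), Ppat, which catalyses the committed step (-1.16, SE 0.144, adjusted p = 1.96e-05), and Pfas (-0.93, SE 0.152, adjusted p = 0.000207). Ppat averaged 44.1, 20.2 and 13.9 CPM in DMSO, LPS and TM7nox, and Pfas 93.1, 49.9 and 33.3 CPM. With TM7nox 2 of the 10 were called lower than LPS, Pfas (-0.58, SE 0.152, adjusted p = 0.0201) and Ppat (-0.53, SE 0.144, adjusted p = 0.0246), and both were lost in replicates 1 and 2 alone (adjusted p = 0.284 and 0.505). Over all genes 6.4% were called lower. DESeq2 and the replicate block each called 5 of the 10 lower, where they called 9.43% and 12.7% of all genes lower. Pfas was also lost without LPS replicate 1 or TM7nox replicate 3 or 4 (0.0579 to 0.0691), and Ppat without LPS replicate 2 or 4, TM7nox replicate 1, 3 or 4 (0.0524 to 0.0782), or with no filter (0.0508). In replicates 1 and 2 alone LPS against DMSO left Prps2 (adjusted p = 0.133) and Pfas (0.0882) uncalled.

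Of the nucleotide interconversion genes other than Ampd3, 0 of 15 rose with LPS (also 0 unadjusted and by DESeq2), beside 20.2% of all genes, and 4 fell (26.7%, beside 21.7%), with a median of -0.28. Besides Ampd2 these were Gmpr, which converts GMP to IMP (-1.55, SE 0.232, adjusted p = 0.000101), the adenylosuccinate synthase Adssl1 (-1.11, SE 0.167, adjusted p = 0.000103) and the guanylate kinase Guk1 (-0.66, SE 0.166, adjusted p = 0.00549, and 0.222 in replicates 1 and 2 alone). With TM7nox against LPS 0 of the 15 were called in either direction, where 7.37% of all genes were higher and 6.4% lower. At an unadjusted p under 0.05 edgeR gave 1 higher and 3 lower, where 13.2% of all genes were in each direction. DESeq2 called 0 higher and 1 lower, beside 9.06% and 9.43% of all genes, and the replicate block called 1 higher and 3 lower, beside 12.3% and 12.7%. With that block 8 of the 15 fell with LPS, beside 27.2% of all genes.

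Of 17 salvage and breakdown genes LPS called 4 higher and 4 lower, 23.5% each way and near the 20.2% and 21.7% of all genes. Besides Pnp and Pnp2, Samhd1, which cuts deoxynucleotides, rose (104, 544 and 444 CPM in DMSO, LPS and TM7nox, LPS change 2.35, SE 0.146, adjusted p = 2.35e-08). The nucleotidase Nt5c3 rose as well (15.3, 48.6 and 38.7 CPM, 1.61, SE 0.228, adjusted p = 6.05e-05). With TM7nox 0 of 17 were called higher (also 0 unadjusted and by DESeq2) and 2 lower than LPS (11.8%, beside 6.4% of all genes). These were the guanine deaminase Gda (24.4 CPM in LPS and 6.18 with TM7nox, -1.97, SE 0.351, adjusted p = 0.00186) and Mtap, which recycles methylthioadenosine (-0.58, SE 0.139, adjusted p = 0.0129, and 0.452 in replicates 1 and 2 alone).

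The list of ectonucleotidases, nucleoside carriers and adenosine receptors also holds intracellular relatives of the ectoenzymes such as Entpd7. Without Adora2a and Adora3, LPS called 4 of 10 higher (40%) and 2 lower, where 20.2% of all genes were called higher and 21.7% lower. With TM7nox against LPS 1 of the 10 was called higher and 3 lower (30%), where 7.37% of all genes were higher and 6.4% lower. The 2 lower with LPS and the 1 higher with TM7nox were near those shares. Slc28a2 and its near-copy Slc28a2b, which may share reads, both count among the 4 higher with LPS and the 3 lower with TM7nox. Slc28a2b could enter the test only through libraries that received LPS. With the replicate block 5 were lower with LPS, beside 27.2% of all genes. Adora3, another adenosine receptor, averaged 0.396, 1.47 and 0.245 CPM in DMSO, LPS and TM7nox. It reached the level needed to enter the test in 4 LPS, 1 DMSO and 2 TM7nox libraries, so like Adora2a it could enter only through LPS and carries no test. Entpd6 fell with LPS (-1.13, SE 0.223, adjusted p = 0.000978, and 0.229 in replicates 1 and 2 alone), as did Entpd5 (-0.99, SE 0.202, adjusted p = 0.00122, and 0.222 in replicates 1 and 2 alone). The equilibrative carrier Slc29a3 averaged 6.39, 11.7 and 17.7 CPM and was the 1 gene called higher with TM7nox (0.60, SE 0.153, adjusted p = 0.0182). It was lost without LPS replicate 3 or 4 or TM7nox replicate 2, 3 or 4 (0.0514 to 0.0676), in replicates 1 and 2 alone (0.712) and with no filter (0.0532).

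Of 11 receptors for extracellular nucleotides 4 were expressed enough to test in RNA, and LPS called 3 higher and 1 lower, beside 20.2% and 21.7% of all genes. P2ry2, which senses ATP and UTP, averaged 4.19, 25.5 and 13.2 CPM, with a rise of 2.58 (SE 0.196, adjusted p = 1.71e-07) and a TM7nox difference of -0.94 (SE 0.179, adjusted p = 0.00297). P2ry6, which senses UDP, averaged 32.0, 112 and 46.0 CPM, with 1.76 (SE 0.248, adjusted p = 5.94e-05) and -1.28 (SE 0.244, adjusted p = 0.00301). In replicates 1 and 2 alone neither TM7nox difference was called (adjusted p = 0.377 and 0.243). P2rx7, the ATP-gated channel, fell with LPS from 22.5 to 7.50 CPM (-1.62, SE 0.287, adjusted p = 0.00041, and 0.0728 in replicates 1 and 2 alone).

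**Figure D4:**
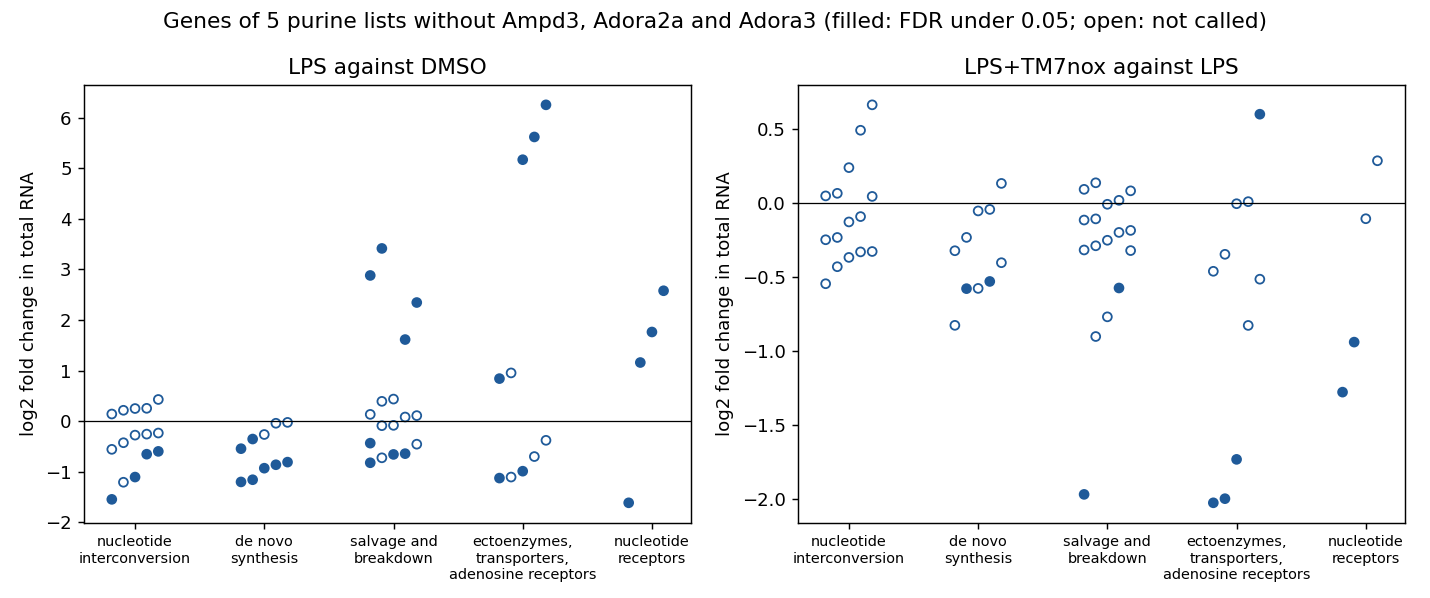
Log2 fold change in RNA of each tested gene of the 5 purine lists, for LPS against DMSO and for TM7nox with LPS against LPS, with filled points for genes called at an adjusted p under 0.05. The list medians run from -0.68 (de novo synthesis) to 1.46 (nucleotide receptors) with LPS. Ampd3, Adora2a and Adora3 are left out of both panels.

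The genes with the RNA profile most like that of Ampd3 were looked up over the 12 RNA libraries among 8484 other genes with a mean of at least 5 CPM. Likeness was the root mean square difference of centred log2 CPM, whose median over those genes was 1.53. Gclm, a subunit of the enzyme that starts glutathione synthesis, was nearest at 0.50 and averaged 31.6, 26.1 and 179 CPM in DMSO, LPS and TM7nox. Impact, a regulator of the translation kinase Gcn2, was also at 0.50 (18.8, 14.1 and 70.7 CPM). Then came Arl11, a small GTPase-like protein (0.55; 6.85, 4.28 and 22.2 CPM), Srxn1, sulfiredoxin (0.60; 36.0, 51.8 and 278 CPM), and Slc1a4, a neutral amino acid carrier (0.64; 2.43, 2.74 and 19.7 CPM). Over the 12 RIP libraries their distances from Ampd3 were 0.54, 0.47, 0.66, 0.68 and 0.73. None of the 5 is a purine gene of the lists. All 5 share with Ampd3 the high TM7nox libraries that chose it, so their closeness describes these libraries.

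**Figure D5:**
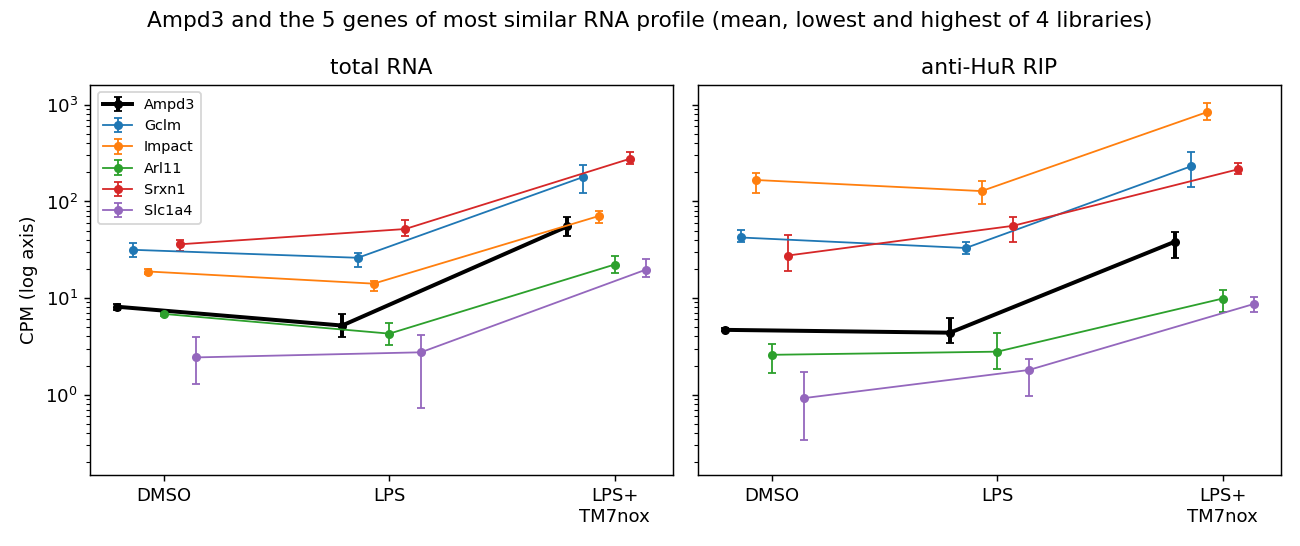
Level (CPM, log axis) of Ampd3 and of the 5 genes with the most similar RNA profile by treatment in RNA and in RIP, with points at the mean and bars from the lowest to the highest of 4 libraries. All 6 genes have their highest mean with TM7nox in each assay, and in RNA the root mean square distances from Ampd3 are 0.50 to 0.64.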

How the data were processed

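RAW264.7 libraries were 12 of total RNA, 12 of anti-HuR RIP and 3 of IgG. The authors deposited raw counts per gene, per the file headers, and the submitters' processing notes name FastQC 0.11.9, STAR, HTSeq, DESeq2 and GRCm39. The strand setting and the annotation release were not found there. The labels do not say that replicates are separate cultures, so p-values measure the spread between these libraries. Members and lists were chosen with earlier results of these data known.

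The test was edgeR's, version 4.0.16 under R 4.3.3 (quasi-likelihood F test, two-sided, TMM, filterByExpr at a minimum count of 10, Benjamini-Hochberg over all genes tested), with 0.05 as the threshold on the adjusted p for a call. SE was derived from the F statistic. The 12 RNA libraries, the 12 RIP libraries, both together (6 group means) and RIP with IgG (treatment as covariate) were fitted, after a test on simulated data. TMM makes RIP over RNA relative to the typical gene. Alternatives were DESeq2 1.42.0, its size factors, no filter, a replicate block, each library left out and each pair of replicate numbers (1 and 2, 3 and 4). Same-numbered libraries deviated together in 12 of 12 pairs in RNA (r 0.143 to 0.367) and in RIP (0.221 to 0.507). This pairing comes from the data and not from the labels. It was used for the ratios between same-numbered libraries and in the replicate block. The main fits left it out, so their p-values and shares are unpaired. For TM7nox against LPS they called 1704 genes in RNA and 2212 in RIP, and the block called 3091 and 4577. Ampd3, chosen by its values, was given no test, and neither were Adora2a and Adora3, which in RNA could reach the filter only through the LPS group. Slc28a2b, which in RNA reached it only through the LPS and TM7nox groups, kept its test. Named genes were the members, their near-copies, overlapping genes, up to 3 called genes per list with the largest fold change, and the 5 genes nearest to Ampd3. Coordinates and sequences are from GENCODE M39 on GRCm39, which matched 93.2% of identifiers.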

Additional observations from a re-analysis of the deposited data

Results flagged for a closer look

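In 59 groups of 4 libraries, Dixon's test at the 95% level singled out 2 values where chance gives about 1 in 20 groups. Impdh2 in RIP LPS replicate 2 stood at 57.9 CPM, while the other 3 libraries of the group stood at 68.5 to 70.1 (the gap was 0.868 of the range). Entpd7 in RNA LPS replicate 4 stood at 42.9 CPM, while the others stood at 47.3 to 47.9 (0.875 of the range).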

How the results depend on the processing

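Of 1716 alternative values for 116 gene-by-comparison results, 1587 kept direction and, where tested, side of the threshold, 67 lost a call, 26 gained one and 36 turned sign. No called value turned sign. With replicates 1 and 2 alone LPS called 1668 genes and 3 members in RNA and 3392 genes and 3 members in RIP. TM7nox against LPS called 168 genes in RNA and 789 in RIP, and TM7nox against DMSO in RNA 2246 genes and 3 members. With replicates 3 and 4 alone TM7nox against LPS called 3489 genes and 5 members in RNA and 1070 genes in RIP. With the replicate block it called 3091 genes and 4 members in RNA and 4577 genes in RIP. The change of RIP over RNA by LPS called 66 genes and 1 member with DESeq2, 49 genes with no filter, 50 with the replicate block, 0 in replicates 1 and 2, 13 in replicates 3 and 4 and 4 to 11 with 1 library left out (11 without RNA DMSO replicate 1). Its change by TM7nox called 3, 5, 2, 0, 0 and 1 to 3. At an unadjusted p under 0.05 edgeR gave 1041 and 771 genes, and DESeq2 1347 and 994. With 1 library left out, LPS called 4427 to 5585 genes in RNA and 5145 to 6294 in RIP, and TM7nox against LPS 1199 to 1605 in RNA and 1495 to 2210 in RIP.

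Sign turned in differences that were not called or not tested. For Entpd7 in RNA between TM7nox and LPS the value was -0.0132 with DESeq2 size factors, -0.0133 with DESeq2, -0.000526 with the replicate block and -0.00421 in replicates 3 and 4, and -0.0760 to 0.0418 with 1 library left out. Xdh in RNA was at 0.19 for TM7nox against LPS in replicates 1 and 2 (-0.403 to 0.0313 with 1 library left out) and at -0.12 for LPS in replicates 3 and 4 (-0.0562 to 0.220). For TM7nox against DMSO it was at 0.0268 with DESeq2 size factors, 0.0261 with DESeq2, 0.0525 with no filter and 0.67 in replicates 1 and 2 (-0.238 to 0.143 with 1 library left out). In RIP with LPS, replicates 3 and 4 gave 0.0423 for Ampd3, 0.050 for Ampd2 (-0.401 to 0.00649 with 1 library left out) and 0.356 for Ada (-0.345 to 0.00836). In RIP with TM7nox, replicates 1 and 2 gave 0.272 for Ada (-0.45 with all libraries) and 0.0217 for Xdh, and Ampd2 ranged from -0.0618 to 0.348. The change of the Entpd7 ratio by LPS was -0.27 in replicates 3 and 4 and -0.0617 to 0.186 with 1 library left out. The causes were not tested. Leaving out an IgG library leaves 2, and RIP against IgG could not be fitted in replicates 1 and 2, which hold no IgG. Adora2a and Adora3 rest on few counts, and RNA DMSO replicate 1, at 2.73 M counts, limits the low DMSO values.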
